A study of Mus musculus with 12 samples.

Results

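The genes described here encode 8 secreted proteins of the acute-phase response: the serum amyloid A genes Saa1, Saa2 and Saa3, the haptoglobin gene Hp, the chitinase-like gene Chil1, the lipopolysaccharide-binding gene Lbp, the glycoprotein gene Lrg1 and the long pentraxin gene Ptx3. They were found by symbol among the 50684 genes of the count table. All 8 were present, and 7 of them passed the filter on low counts, as did 19408 genes in all. Saa2, with at most 9 counts in a library, did not pass. The genes were gathered by function around Saa3, which was selected on its measured differences from PBS in these libraries, and the changes of the others were known as well. Their differences from PBS are therefore given as a description, without a p-value.

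RNA was sequenced from ears of 12 female C57BL/6 mice, aged 8 weeks, with 3 mice in each of 4 groups. One group received PBS, another IL-17A and another IL-36γ, at 1 µg per ear, and the group IL-17A + IL-36γ received 1 µg of each cytokine. The injections were intradermal, into the ear pinna, in a volume of 5 µL. Treatment was given on consecutive days and ears were collected after 4 days. The number of injections is not given in the sources used here. The injection itself was therefore common to all groups, the PBS group included. The purpose of the comparison was to see how IL-17A and IL-36γ act alone and together on skin, as a model of psoriasis. The ear tissue was measured as 1 mixture of cells. Fewer cells of a type and less RNA per cell cannot be told apart in such a mixture, and cells that migrated into the ear count as part of it.

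The depth was similar in all libraries, between 25293468 and 34759293 counts. The 8 keratinocyte markers (such as Krt5, Krt14 and Lor) were all detected, at a summed level between 12300 and 34900 CPM, and the tissue is labelled as skin. CPM are counts per 1000000 counts of the library, with library sizes scaled by the trimmed mean of M-values (TMM). A change was called at an adjusted p below 0.05 together with an absolute log2 fold change above 1, from the quasi-likelihood test of edgeR with Benjamini-Hochberg adjustment over all tested genes.

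Acute-phase proteins are secreted in large amounts during inflammation. The liver is their classical source, where IL-6 acts through Stat3, and IL-1 and related cytokines act through NF-κB and C/EBP factors. Several are also made outside the liver by epithelial cells, macrophages, neutrophils, fat cells and fibroblasts, and mouse Saa3 is the family member best known for this local expression. IL-36γ belongs to the IL-1 family and signals to NF-κB, whereas IL-17A acts through its own receptor and, among other routes, prolongs the life of messenger RNAs of inflammatory genes.

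The members fell into different patterns over the 4 groups. Saa1, Saa3 and Chil1 were far higher wherever IL-36γ had been injected, and adding IL-17A to IL-36γ made no detectable difference to Saa3. Hp was higher than after PBS in every cytokine group. Ptx3 was highest after the combination, and no change of Lbp or Lrg1 was called in any group. Of the 7 members tested, 3 were called higher after IL-17A than after PBS (Saa3, Hp and Chil1), 4 after IL-36γ (Saa1, Saa3, Hp and Chil1) and 5 in the combination group (the same genes and Ptx3). None was called lower. Over all tested genes, the shares called were 1.07% higher and 1.03% lower for IL-17A, 5.11% and 1.98% for IL-36γ, and 7.35% and 6.06% for the combination. These counts describe how the members were chosen. The median log2 fold change against PBS was 0.73, 1.02 and 1.32 for the members tested in the respective groups, where that of all tested genes was 0.04, -0.02 and -0.03. Among all genes the median moved to -0.13, -0.16 and -0.17 when libraries were scaled by their size alone.

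**Figure D1:**
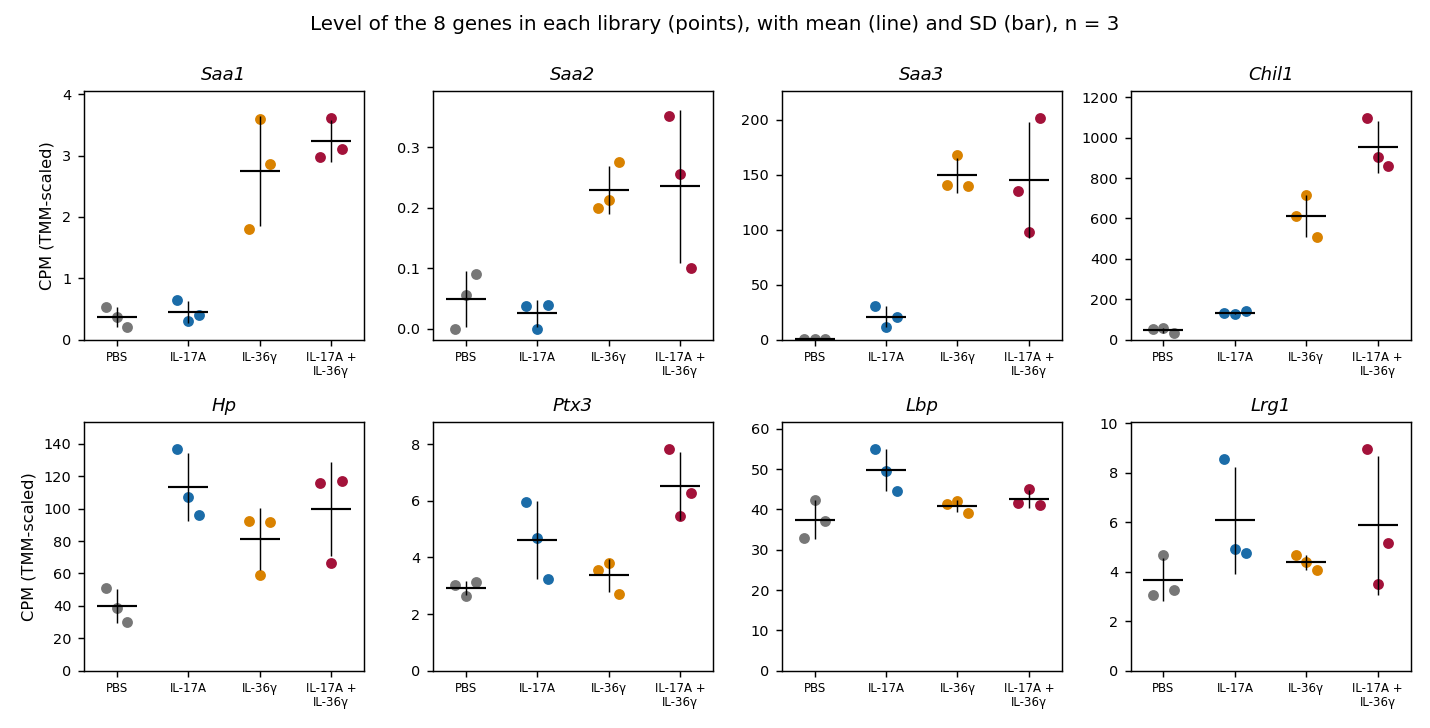
TMM-scaled CPM (y axes, linear and separate for each gene) of the 8 genes in the 12 libraries, by group (x axes). Points are libraries, horizontal lines group means and vertical bars the SD of 3 libraries. All libraries with IL-36γ lie above all PBS and IL-17A libraries for Saa1, Saa3 and Chil1, whereas Hp is raised in every cytokine group, Ptx3 is highest after IL-17A + IL-36γ, and Lbp and Lrg1 overlap between most groups.

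The plot of levels by library shows each gene on its own axis, so that its heights may be compared between groups but not between genes.

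Saa3, Saa1 and Saa2 are the inducible serum amyloid A genes of the mouse, small apolipoproteins of high-density lipoprotein that also attract and activate leukocytes. They lie in 1 cluster on chromosome 7 (GRCm38, GENCODE vM21), in the order Saa3 (chr7:46711998-46715700, minus strand), Saa4 (chr7:46727998-46732603, minus strand), the pseudogene Saa-ps, Saa1 (chr7:46740497-46742980, minus strand) and Saa2 (chr7:46751790-46754313, plus strand). Saa1 and Saa2 face away from each other across 8809 bases, whereas 12297 bases separate Saa3 from Saa4. The sequences around the start sites are shown because the genes of this cluster differed in how they responded, as described below. Each holds the 250 bases before and the 50 bases from the start site on of the RefSeq gene (GRCm38.p6), printed 5′ to 3′ on the strand of the gene, from chr7:46715627-46715926 (minus strand) for Saa3, chr7:46742931-46743230 (minus strand) for Saa1 and chr7:46751583-46751882 (plus strand) for Saa2. Capitals mark matches on either strand to the C/EBP motif TTGCNNAA:
Saa3: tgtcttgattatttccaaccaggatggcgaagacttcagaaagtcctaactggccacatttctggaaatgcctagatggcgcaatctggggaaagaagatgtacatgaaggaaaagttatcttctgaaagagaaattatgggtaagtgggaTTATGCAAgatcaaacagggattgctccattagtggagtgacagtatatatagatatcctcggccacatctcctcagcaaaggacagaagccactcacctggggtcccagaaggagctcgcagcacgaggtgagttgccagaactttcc
Saa1: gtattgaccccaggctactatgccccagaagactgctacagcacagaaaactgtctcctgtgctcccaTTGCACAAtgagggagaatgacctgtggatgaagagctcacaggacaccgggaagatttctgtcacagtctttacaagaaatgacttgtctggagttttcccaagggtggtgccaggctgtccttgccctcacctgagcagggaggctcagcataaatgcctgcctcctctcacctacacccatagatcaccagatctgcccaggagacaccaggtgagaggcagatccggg
Saa2: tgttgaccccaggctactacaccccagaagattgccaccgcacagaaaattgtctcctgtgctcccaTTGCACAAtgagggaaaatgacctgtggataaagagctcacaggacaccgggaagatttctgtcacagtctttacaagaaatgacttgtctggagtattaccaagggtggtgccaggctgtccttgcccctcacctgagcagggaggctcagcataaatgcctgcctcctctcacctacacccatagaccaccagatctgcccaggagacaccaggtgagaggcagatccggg

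The promoters of Saa1 and Saa2 were near copies, identical at 287 of 301 aligned positions (95.3%), with the C/EBP match at 182 and 183 bases before the start site. That of Saa3 was identical to Saa1 at 54.1% and to Saa2 at 53.3% of aligned positions, and its C/EBP match lay 99 bases before the start site, on the opposite strand. Entries were present for 6 of the 8 members (not Hp and Lbp), and 4 of these 6 (Saa1, Saa2, Saa3 and Ptx3) held the C/EBP motif, against 10.8% of the 32851 promoters in the table. The NF-κB consensus was found in 2 of the 6 (Chil1 and Ptx3), against 8.46% of all promoters, and the STAT motif TTCNNNGAA in none of the 6, against 8.3%. None of the matches overlapped a match to another of these motifs. A match describes these letters only.

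Saa3 was nearly silent after PBS, at 0.83, 0.934 and 0.364 CPM in the 3 libraries. After IL-17A it reached 30.4, 11.1 and 20.4 CPM. The IL-36γ libraries held 141, 168 and 140 CPM, and the IL-17A + IL-36γ libraries 135, 98.1 and 202 CPM. No library of the IL-17A group overlapped PBS, and none with IL-36γ overlapped IL-17A, whereas the IL-36γ libraries all lay within the range of the combination. Against PBS, the log2 fold change of Saa3 was 4.84 (SE 0.45) for IL-17A, 7.70 (SE 0.47) for IL-36γ and 7.65 (SE 0.47) for the combination. In rank by CPM per kilobase of exon among 19360 genes, Saa3 went from place 17468 after PBS to 5956 with IL-17A, 672 with IL-36γ and 717 with both.

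The comparisons among the cytokine groups were tested. They share the treated libraries with the comparisons against PBS. Saa3 was higher after IL-36γ than after IL-17A by 2.86 on the log2 scale (SE 0.34, adjusted p = 0.00198), which is 7.27-fold. It was higher after the combination than after IL-17A alone by a similar 2.82 (SE 0.34, adjusted p = 0.000272). The combination differed from IL-36γ alone by -0.05 (adjusted p = 0.965). The 95% interval reached from -0.76 to 0.67, so with 3 mice per group a rise or a fall within it remained possible. On the log2 scale the effect of IL-17A thus differed by -4.88 (SE 0.56) between ears with and without IL-36γ. Among the members this interaction was called for Saa3 only. Hp was called as well without a filter on low counts, by DESeq2, with the replicate number as a block (-1.22) and without PBS replicate 1 (-1.42), and Chil1 without a filter and by DESeq2. Over all tested genes 0.423% were called lower and 0.129% higher in this way. It contains the change by IL-17A against PBS by which the gene was known, and its call was lost without replicate 1 of IL-36γ or without replicate 1 of IL-17A + IL-36γ, while its value stayed at -4.88 and -4.84.

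Saa1 followed another pattern at a far lower level. The PBS libraries held 0.526, 0.368 and 0.212 CPM, those of IL-17A 0.639, 0.299 and 0.402 CPM, and these groups overlapped (log2 fold change 0.25, SE 0.42). After IL-36γ the libraries held 1.8, 3.59 and 2.86 CPM, and after the combination 2.97, 3.62 and 3.11 CPM. Every library with IL-36γ was above every library without it. Saa1 was 6.16-fold higher after IL-36γ than after IL-17A (log2 2.62, SE 0.35, adjusted p = 0.00326) and 7.23-fold higher after the combination than after IL-17A (log2 2.85, SE 0.35, adjusted p = 0.000287). The combination and IL-36γ alone differed by 0.23 (95% interval from -0.42 to 0.88, adjusted p = 0.737).

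Saa2 stayed at the limit of detection. Its counts were 0, 2 and 3 after PBS, 1, 0 and 1 after IL-17A, 6, 7 and 8 after IL-36γ, and 9, 7 and 3 after IL-17A + IL-36γ. All PBS and IL-17A libraries held 3 counts or fewer. Summed over 3 libraries, the ratio to PBS was 4.77 after IL-36γ (95% interval from 1.75 to 16.2) and 4.79 after the combination (1.73 to 16.4), and the combination stood to IL-36γ as 1.00 (0.51 to 1.96). These exact intervals cover counting error only. Saa1 and Saa2 share 462 windows of 76 bases, the length of a read, or 18.2% of those of Saa1 and 17.5% of those of Saa2. Whether reads that match both genes were counted is not given in the sources used here, so the split between this pair is uncertain. Saa4, the constitutive member of the family that lies between Saa3 and Saa1, had 0 or 1 count per library.

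The levels of the serum amyloid A genes relative to each other depended on the length used. Per kilobase of all annotated exon sequence, Saa3 reached 57.4 CPM per kb after IL-36γ, Saa1 1.11 and Saa2 0.0911. The annotation of Saa1 and Saa2 includes transcripts with a retained intron, so that their exons cover 2478 and 2518 bases. With the longest coding transcript (2200 bases for Saa3, 609 for Saa1 and 652 for Saa2) the values were 68.0, 4.51 and 0.352 CPM per kb. The order Saa3, Saa1, Saa2 was the same on both scales after every cytokine treatment. After PBS, Saa3 was above Saa1 per kilobase of exon (0.272 against 0.149) and below it per kilobase of coding transcript (0.323 against 0.605).

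Chil1 encodes a chitinase-like glycoprotein without chitinase activity (chr1:134182176-134190181, GRCm38, plus strand), made by macrophages, neutrophils and epithelial cells in inflamed tissue. Its start region (chr1:134181906-134182205, plus strand, GRCm38.p6) is shown with its match to the NF-κB consensus in capitals, since it was the member that rose to the highest level and held no C/EBP motif:
Chil1: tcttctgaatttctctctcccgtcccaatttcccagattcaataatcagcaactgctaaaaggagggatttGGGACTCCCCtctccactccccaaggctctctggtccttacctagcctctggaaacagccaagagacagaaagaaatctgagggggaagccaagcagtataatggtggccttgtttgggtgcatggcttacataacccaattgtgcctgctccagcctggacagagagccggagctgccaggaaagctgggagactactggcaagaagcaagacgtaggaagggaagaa

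The NF-κB match lay 179 bases before the start site and reads as a match on both strands. Lack of a C/EBP match was not particular to Chil1. The start region of Lrg1, of which no change was called, held no match to the NF-κB, STAT or C/EBP motif. Whether a motif bears on the level was not tested. Chil1 held 50.3, 55.1 and 30.1 CPM after PBS, 130, 127 and 139 after IL-17A, 613, 714 and 506 CPM after IL-36γ, and 1100, 904 and 859 CPM after IL-17A + IL-36γ. None of the 4 groups overlapped another. In rank by CPM per kilobase of exon it moved from place 2695 to 842, 164 and 102 of 19360. The log2 fold changes against PBS were 1.55 (SE 0.20), 3.76 (SE 0.21) and 4.4 (SE 0.22). Chil1 was higher after IL-36γ than after IL-17A by 2.21 (SE 0.20, adjusted p = 0.000742), and higher after the combination than after IL-17A by 2.85 (SE 0.20, adjusted p = 3.54e-05). Against IL-36γ alone the combination gave 0.64 (SE 0.19), or 1.56-fold, with all 3 libraries above the highest IL-36γ library, an unadjusted p of 0.00565 and an adjusted p of 0.177, which missed the threshold. A fit of the 6 libraries of these groups, with the replicate number as a block, was chosen after seeing the data. Only for these groups were the numbers taken to pair, and the labels give no pairing. In that fit it was 0.65 (adjusted p = 0.0317), below the fold change threshold, and over the alternatives the adjusted p lay between 0.0317 and 0.517.

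Chil1 was also the only member whose rise after the combination exceeded the sum of the single rises by over 2 SE. On the CPM scale the combination raised the mean by 909 CPM over PBS, where the rises after IL-17A and IL-36γ alone summed to 653 CPM, an excess of 256 CPM (SE 95.4). For Saa3 the corresponding excess was -24.6 CPM (SE 32.2) on a summed rise of 169 CPM, and for Saa1 0.405 CPM (SE 0.574) on 2.46 CPM. Hp and Lbp departed the other way by over 2 SE, at -54.8 CPM (SE 24.1) and -10.5 CPM (SE 4.36). On the log2 scale the interaction of Chil1 had the opposite sign, at -0.91 (SE 0.27), and was not called. The sign of a departure from additivity thus depended on the scale for Chil1.

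Hp encodes haptoglobin, which binds free hemoglobin so that it is cleared through Cd163 (chr8:109575128-109579172, GRCm38, minus strand). It was expressed at 50.7, 38.8 and 30.2 CPM after PBS, at 137, 107 and 96 after IL-17A, at 92.6, 59.2 and 91.9 CPM after IL-36γ and at 116, 66.6 and 117 CPM after IL-17A + IL-36γ. Every cytokine-treated library lay above every PBS library. The log2 fold change against PBS was 1.5 (SE 0.25) for IL-17A, 1.02 (SE 0.25) for IL-36γ and 1.32 (SE 0.25) for the combination. In order of level the IL-17A group stood first, and the neighbours in this order did not differ beyond their spread: the combination against IL-17A gave -0.18 (95% interval from -0.76 to 0.39, adjusted p = 0.605) and against IL-36γ 0.30 (-0.28 to 0.87, adjusted p = 0.596). IL-36γ against IL-17A gave -0.48 (-1.05 to 0.09, adjusted p = 0.256), with every IL-36γ library below every IL-17A library. The rise after the combination was 59.8 CPM and the summed single rises 115 CPM, an excess of -54.8 CPM (SE 24.1).

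The calls of Hp and Chil1 against PBS depended on some choices. With only the PBS and IL-17A libraries in the fit, Saa3 alone was called after IL-17A, and Hp and Chil1 were not. For Hp the IL-17A call failed without PBS replicate 3 or IL-17A replicate 1, and that after IL-36γ, whose fold change lay just past the threshold, was lost without PBS replicate 3, IL-36γ replicate 1 or IL-36γ replicate 3, and with scaling by library size (0.88).

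Ptx3 encodes a long pentraxin, a soluble pattern recognition protein made locally by macrophages, endothelium and fibroblasts (chr3:66219910-66225805, GRCm38, plus strand, overlapping Veph1 on the opposite strand with exons apart). It held 3.02, 2.63 and 3.12 CPM after PBS, 5.97, 4.69 and 3.22 after IL-17A, 3.56, 3.81 and 2.72 CPM after IL-36γ, and 7.84, 5.45 and 6.29 CPM after IL-17A + IL-36γ. The IL-36γ libraries overlapped PBS, and the libraries of the combination overlapped those of IL-17A but not those of IL-36γ. The log2 fold change against PBS was 0.66 (SE 0.22), 0.20 (SE 0.23) and 1.16 (SE 0.22). Between the combination and IL-36γ it was 0.95 (SE 0.22), with an unadjusted p of 0.00101 and an adjusted p of 0.114. In the blocked fit of these 6 libraries, chosen after seeing the data, it was 0.95 as well (adjusted p = 0.0363), just under the fold change threshold. Over the alternatives the adjusted p lay between 0.00172 and 0.45. Against IL-17A the combination gave 0.49 (95% interval from -0.01 to 1.00, adjusted p = 0.103). The start region of Ptx3 held both a C/EBP match, 57 bases before the start site, and NF-κB matches at the start site.

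Lbp encodes a plasma protein that hands bacterial lipopolysaccharide to Cd14 (chr2:158306493-158332852, GRCm38, plus strand). Its levels lay in a narrow range, with 32.9, 42.4 and 37.2 CPM after PBS, 55.1, 49.5 and 44.6 after IL-17A, 41.4, 42 and 39.2 CPM after IL-36γ and 41.7, 45.1 and 41 CPM after the combination. The IL-17A libraries were above those of PBS and those of IL-36γ. The change was below 1 on the log2 scale, at 0.41 (SE 0.10) against PBS, and IL-36γ against IL-17A gave -0.28 (95% interval from -0.51 to -0.06, adjusted p = 0.096).

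Lrg1 encodes a leucine-rich glycoprotein of plasma and neutrophil granules that modifies TGF-β signaling in blood vessels (chr17:56119678-56122001, GRCm38, minus strand). It held 3.07, 4.67 and 3.27 CPM after PBS, 8.57, 4.92 and 4.75 after IL-17A, 4.66, 4.39 and 4.06 CPM after IL-36γ, and 8.97, 3.51 and 5.15 CPM after the combination. Replicate 1 stood high in each of the IL-17A and IL-17A + IL-36γ groups. No change of Lrg1 was called, and the combination differed from IL-17A by -0.05 (95% interval from -0.78 to 0.68, adjusted p = 0.919) and from IL-36γ by 0.42 (-0.31 to 1.16, adjusted p = 0.551).

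In the comparisons among cytokine groups, 3 of the 7 members tested (Saa1, Saa3 and Chil1) were called higher after IL-36γ than after IL-17A, where 1.25% of all tested genes were called higher and 0.366% lower. The same 3 genes were called higher after IL-17A + IL-36γ than after IL-17A, where the shares of all genes were 4.46% higher and 4.49% lower. These comparisons share the IL-17A libraries. None of the 7 was called between the combination and IL-36γ by edgeR, and none by the likelihood ratio test of DESeq2, while 2 (Chil1 and Ptx3) had an unadjusted p below 0.05. In that comparison 0% of all tested genes were called higher and 0.0103% lower, which is 2 genes. The blocked fit of the 6 libraries called none of the members either, and of 18422 genes tested it called 44 higher and 150 lower. The median log2 fold change of the members tested was -0.28 for IL-36γ against IL-17A, 0.49 for the combination against IL-17A and 0.30 for the combination against IL-36γ, and that of all genes between -0.01 and 0.

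**Figure D2:**
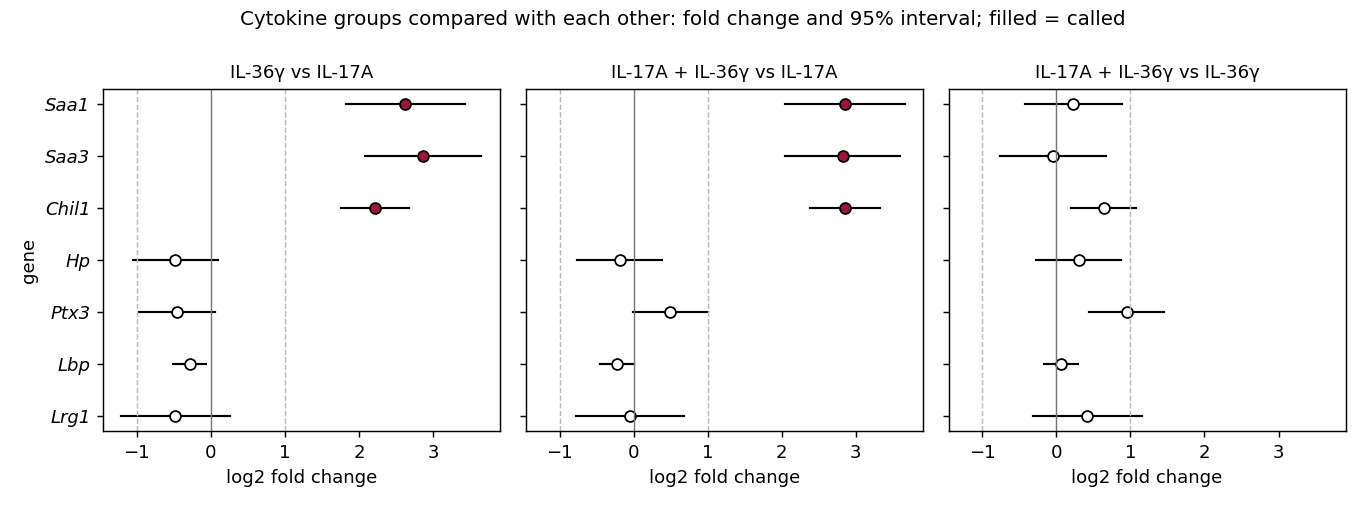
Log2 fold change (x axes) of the 7 tested members (y axis) in the 3 comparisons among cytokine groups. Circles are estimates from the fit over 12 libraries and lines their 95% intervals, filled circles mark called changes, and dashed lines mark the threshold of 1 in either direction. Saa1, Saa3 and Chil1 lie between 2.21 and 2.86 in the comparisons of IL-36γ or the combination with IL-17A, and no member is called between the combination and IL-36γ.

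The plot of log2 fold changes among cytokine groups places the members in 2 sets. The intervals of Saa1, Saa3 and Chil1 lay above 1 in both comparisons with IL-17A, and those of Hp, Lbp and Lrg1 lay below 1, as did that of Ptx3 for IL-36γ against IL-17A. Between the combination and IL-36γ the intervals of Chil1 and Ptx3 lay above 0 but reached from 0.20 to 1.08 and from 0.44 to 1.46.

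Compared per kilobase of exon, Chil1 was the most abundant member after IL-36γ (218 CPM per kb) and after the combination (340), followed by Saa3 and Hp, with 57.4 and 50.6 CPM per kb after IL-36γ, and 55.7 and 62.1 after the combination. Per kilobase of the longest coding transcript Saa3 and Hp stood at 68.0 and 60.4 after IL-36γ and at 65.9 and 74.1 after the combination. Their order thus turned between these groups, by less than the SD of Saa3 after the combination (20.2 CPM per kb of exon). After IL-17A, Hp came first (70.5 CPM per kb of exon), then Chil1 (47.2), Lbp (10.3) and Saa3 (7.92). After PBS, Hp (24.9), Chil1 (16.1) and Lbp (7.76) were the 3 most abundant.

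The levels of cell type markers moved together with several members. The 12 neutrophil markers summed to between 13.8 and 89.8 CPM after PBS, 379 and 868 after IL-17A, 2280 and 4830 after IL-36γ and 7600 and 10000 after the combination. Of the 8 that could be tested, 5, 7 and 7 were called higher than after PBS. Over all tested genes, 1.07%, 5.11% and 7.35% were called higher in these groups. The granule gene Ltf was called lower after IL-36γ, at a mean of 0.0641 CPM against 0.429 CPM after PBS. Most of the neutrophil sum was S100a8 and S100a9, which activated keratinocytes also express. Ly6g, which defines neutrophils, had no count after PBS and a mean of 0.0903, 0.152 and 0.67 CPM in the cytokine groups, and the granule genes Mpo and Elane had at most 7 counts in any library. The 10 macrophage and monocyte markers summed to between 739 and 881 CPM after PBS, 1210 and 1580 after IL-17A, 1880 and 2070 after IL-36γ and 1780 and 2030 after the combination, with 3, 8 and 8 of 10 called higher than after PBS. In the interaction of IL-17A and IL-36γ, 3 of these 10 were called lower, as was Saa3, with a median of -1.03 on the log2 scale. None of the 8 neutrophil markers tested was called there, and 0.423% of all tested genes were called lower. Both lists stood in the order of Saa3 among the 3 PBS libraries, and among the 3 IL-17A libraries, with replicate 1 highest and replicate 2 lowest. Among the 3 IL-36γ libraries the neutrophil sum did and the macrophage sum did not, though replicates 1 and 3 differed little in Saa3 (141 and 140 CPM). Neither list did in the combination group, where the replicate with the most Saa3 had the lowest neutrophil sum (7600 CPM) and the highest macrophage sum (2030 CPM). The keratinocyte sum was above PBS in all cytokine libraries as well, at 12300 to 17900 CPM after PBS, 18100 to 20300 after IL-17A, 22500 to 30800 after IL-36γ and 28900 to 34900 after the combination, with 1, 2 and 3 of 8 called higher. The part of these cells in the levels of Saa3, Saa1 and Chil1 was not tested.

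The 8 adipocyte markers summed to between 178 and 256 CPM after PBS, 190 and 407 after IL-17A, 101 and 221 after IL-36γ and 56.6 and 118 after the combination, and all 8 were called lower after the combination than after PBS and than after IL-17A. Of all tested genes 6.06% and 4.49% were called lower in these comparisons. Fat cells are a known source of Hp. Within the IL-17A, IL-36γ and combination groups, the library with the lowest adipocyte sum was also the one with the lowest Hp, whereas in the PBS group it was the one with the highest. The share of fat in the level of Hp was not tested. Of 10 hepatocyte genes, 9 were analysed, as the albumin gene Alb was not found in the count table. Their sum lay between 0.293 and 5.68 CPM, with Cyp2e1 at a mean of 2.64 to 3.39 CPM in the PBS and single cytokine groups and 0.204 CPM after the combination, and Fgb, Cyp3a11 and Serpina1a had no count in any library. The fibroblast markers (6640 to 13600 CPM) and endothelial markers (163 to 221 CPM) varied less, with at most 2 of 8 and 1 of 8 called in any comparison. The skeletal muscle markers ranged from 249 to 3200 CPM, and 3 of 8 were called lower after the combination than after PBS.

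**Figure D3:**
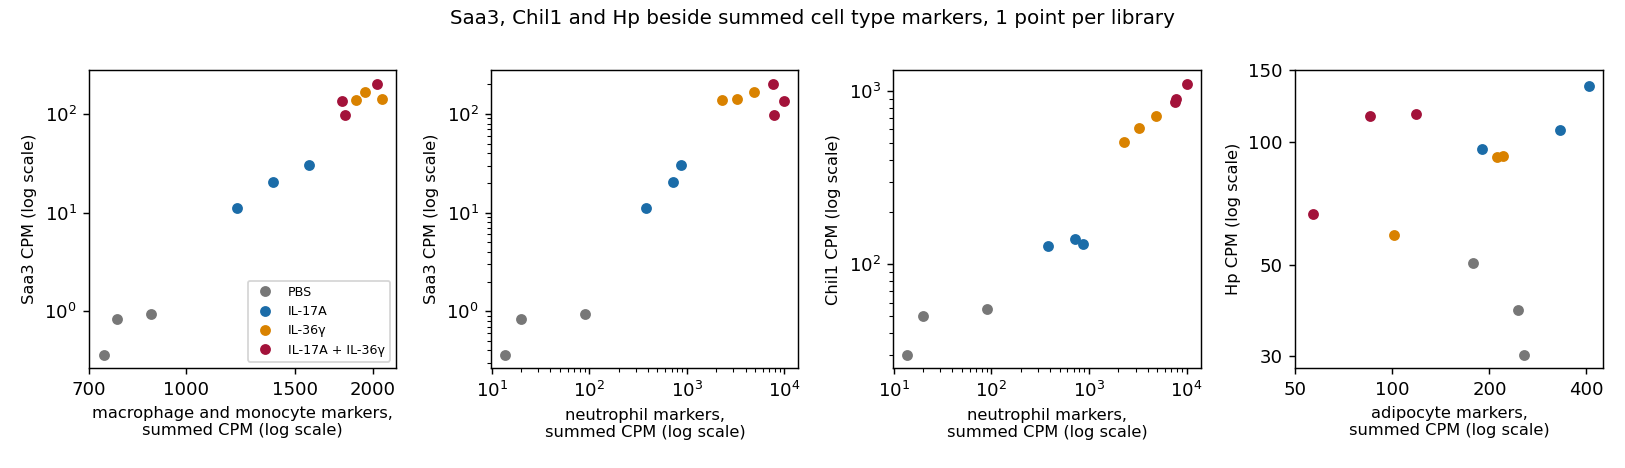
CPM of Saa3, Chil1 or Hp (y axes, log scale) against the summed CPM of a marker list (x axes, log scale), with 1 point for each of the 12 libraries, coloured by group. Saa3 rises from PBS to IL-36γ with the macrophage and neutrophil sums, and Chil1 rises with the neutrophil sum across all groups. Most of the neutrophil sum is S100a8 and S100a9, which activated keratinocytes also express. Saa3 no longer rises from the IL-36γ to the combination group while the neutrophil sum does. Hp does not follow the adipocyte sum across groups.

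As the plot of members against marker sums shows, the neutrophil sum was higher in all combination libraries than in all IL-36γ libraries, as was Chil1, whereas the macrophage sum overlapped between these groups, as did Saa3. Most of the neutrophil sum was S100a8 and S100a9, which activated keratinocytes also express. Of the 8 neutrophil markers tested, 0 were called between the combination and IL-36γ, where 0% of all tested genes were called higher. The libraries of a group lie together in this plot, so no correlation over all libraries is read from it.

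The genes whose log2 CPM followed each member most closely over the 12 libraries were ranked by Pearson's r among 15831 genes with a mean of at least 1 CPM. For Saa3 they were Ap2a2, Spi1, Lyz2 (r = 0.990 each), Grn and Gcnt1 (0.989 each). Lyz2 is a lysozyme gene of macrophages and neutrophils and one of the macrophage markers above, and Spi1 encodes PU.1, a transcription factor of myeloid cells. For Chil1 they were Ly6e (0.992), Il1f6 (0.991), which encodes IL-36α, and Coro1a (0.990), which encodes an actin-binding protein of leukocytes. For Saa1 they were Irf7 (0.976), a regulator of interferon genes, Adar (0.974) and Coro2a (0.973). Hp was followed by Etfdh (0.947), Mrpl9 (0.931) and Ednrb (0.930), Ptx3 by Creld2 (0.939), Ppp1r3b (0.917) and Hyou1 (0.910), Lbp by Cdh5 (0.944), Palld (0.931) and Lysmd3 (0.930), and Lrg1 by Zfp825 (0.875), Adamts4 (0.870) and C5ar1 (0.868). Cdh5 encodes the cadherin of endothelial junctions. Such values describe a shared order of groups and carry no test.

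Other acute-phase proteins that rise in inflammation were followed as a list of 27 genes, of which 19 passed the filter. This list and those below were written with earlier results of these data known. Most genes named from them were picked for a large called change after the combination against PBS. Their adjusted p against PBS is therefore not independent of that choice, and is given as a description. After IL-17A 3 were called higher and 0 lower than after PBS, after IL-36γ 7 higher and 1 lower, and after the combination 7 higher and 2 lower. Over all tested genes, 1.07%, 5.11% and 7.35% were called higher and 1.03%, 1.98% and 6.06% lower in these groups. The median log2 fold change of the 19 was 0.61, 0.57 and 0.90. Lcn2, which encodes lipocalin 2, a binder of bacterial siderophores, rose most, from 2.10, 3.57 and 1.85 CPM after PBS to 118, 100 and 100 CPM after the combination (log2 fold change 5.40, SE 0.24, adjusted p = 7.08e-07). Unlike Saa3, Lcn2 was above IL-36γ in all libraries of the combination, by 1.13 (SE 0.19), though its adjusted p of 0.0927 missed the threshold. In the blocked fit of the 6 libraries, chosen after seeing the data, these values were 1.15 and 0.019. Lcn2 was above IL-17A by 2.65 (adjusted p = 4.42e-05).

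Cfb, complement factor B, rose to 2.60 on the log2 scale after the combination (SE 0.15, adjusted p = 3.61e-06) and to 2.72 after IL-36γ (SE 0.15, adjusted p = 3.83e-06), and the combination and IL-36γ differed by -0.12 (adjusted p = 0.709). Its interaction was called (-1.71, SE 0.20, adjusted p = 0.0122), as were those of Lcn2 (-1.62, SE 0.30, adjusted p = 0.0475) and Serpina3n (-0.92, SE 0.14, adjusted p = 0.0412). All 3 of these calls were lost with scaling by library size alone, without IL-36γ replicate 1 and without IL-17A + IL-36γ replicate 2, and 1 of them remained without PBS replicate 3, IL-17A replicate 2, IL-36γ replicate 3 or IL-17A + IL-36γ replicate 1, that of Cfb each time. Hpx, hemopexin, the binder of free heme, rose by 2.60 after the combination (SE 0.33, adjusted p = 0.000111) and by 2.15 after IL-36γ (SE 0.33, adjusted p = 0.00089), and its 0.99 after IL-17A was not called (adjusted p = 0.0841). The protease inhibitor genes Serpina3n and Serpina3m, near relatives whose reads may be split in part, had 1.64 (adjusted p = 3.9e-06) and 1.69 (adjusted p = 0.00115) after the combination.

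A few genes of the list went the other way or were absent. Orm3, an orosomucoid gene at 1 to 17 counts per library with close copies, fell by 1.75 on the log2 scale after the combination (SE 0.48, adjusted p = 0.011), while the abundant Orm1 held 90.0 and 92.5 CPM after PBS and after the combination. A2m, a protease inhibitor, was lower after IL-36γ and after the combination, at 14.6 CPM each, than after PBS at 41.2 CPM. Apcs, the classical acute-phase pentraxin of the mouse, and Fgb, a chain of fibrinogen, had no count in any library. Of the proteins that the liver lowers in the acute phase, 7 of 8 were analysed (not Alb) and 2 passed the filter. Trf, transferrin, fell by 1.19 after the combination (SE 0.29, adjusted p = 0.00635).

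**Figure D4:**
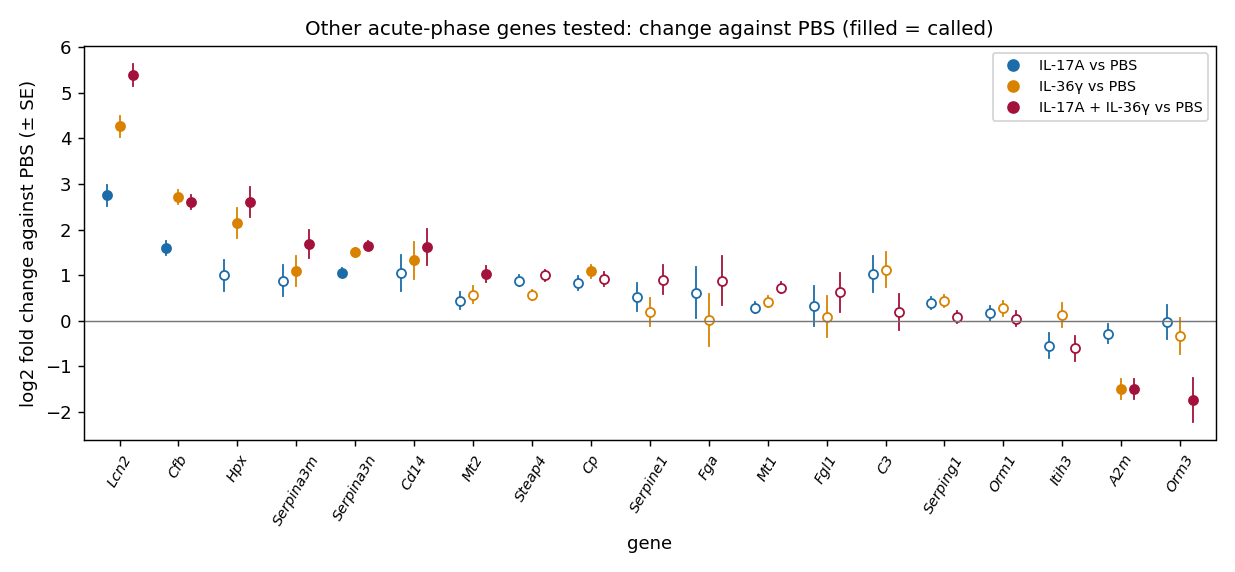
Log2 fold change against PBS (y axis) of the 19 tested acute-phase genes outside the 8 members (x axis, ordered by the change after the combination). Colours mark the cytokine group, filled circles called changes and bars 1 SE. Lcn2, Cfb, Hpx, Serpina3m, Serpina3n, Cd14 and Mt2 are called higher after IL-17A + IL-36γ, and A2m and Orm3 lower.

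The plot of the other acute-phase genes shows that 10 of the 19 were called in neither direction after the combination. Among the cytokine groups, 3 were called higher and 2 lower between the combination and IL-17A, 3 higher and 1 lower between IL-36γ and IL-17A, and 0 between the combination and IL-36γ by edgeR, where the likelihood ratio test of DESeq2 and the blocked fit of the 6 libraries each called 1, Lcn2. In the same order, the shares of all tested genes called higher and lower by edgeR were 4.46% and 4.49%, 1.25% and 0.366%, and 0% and 0.0103%.

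The pathway that induces acute-phase genes was followed from its ligands to its transcription factors, with 28 genes of which 26 were tested. After IL-17A 1 was called higher than after PBS, after IL-36γ 4 higher and 1 lower, and after the combination 7 higher and 0 lower. Over all tested genes, 1.07%, 5.11% and 7.35% were called higher and 1.03%, 1.98% and 6.06% lower in these groups. Of the 8 ligands followed, 5 were called higher after the combination (Il6, Il1b, Tnf, Osm and Il22), and Il1a (0.48), Lif (0.52) and Il11 (-0.76) were not called. Il6, the main inducer in the liver, rose by 1.91 after IL-17A (SE 0.55, adjusted p = 0.0471), 2.96 after IL-36γ (SE 0.51, adjusted p = 0.00175) and 3.75 after the combination (SE 0.50, adjusted p = 0.000152), from at most 11 counts in a PBS library to between 35 and 173 counts in those of the combination. Il1b rose after the combination (3.72, SE 0.89, adjusted p = 0.00537), as did Osm, a cytokine of the IL-6 family (2.12, SE 0.50, adjusted p = 0.00515). Il11, also of that family, was the gene called lower after IL-36γ (-1.03, SE 0.26, adjusted p = 0.013).

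Il22 summed to 1 count over the PBS libraries and 1 over the IL-17A libraries, but to 55 after IL-36γ and 40 after the combination. The ratio to PBS was 62.5 after IL-36γ (95% interval from 10.8 to 2510, counting error only) and 50.4 after the combination (8.54 to 2040), and the combination stood to IL-36γ as 0.807 (0.523 to 1.23). The replicates after IL-36γ were uneven, with 5, 39 and 11 counts. Downstream, Socs3, the feedback inhibitor induced by Stat3, rose by 1.14 after the combination (SE 0.13, adjusted p = 4.78e-05), and Nfkbiz, a nuclear co-regulator of NF-κB, by 1.2 (SE 0.11, adjusted p = 2.24e-05). Nfkbiz had 0.86 after IL-17A, which was not called, and 1.04 after IL-36γ. The receptor chains Il6ra and Il6st stayed between 94.8 and 121 and between 332 and 389 CPM in mean.

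Receptors and partners of the members were followed with 18 genes, of which 17 were tested and 1, 4 and 4 were called higher than after PBS in the IL-17A, IL-36γ and combination groups, with none lower. The shares called higher over all tested genes were 1.07%, 5.11% and 7.35%. Fpr2, the formyl peptide receptor of leukocytes to which serum amyloid A binds, held 2, 15 and 0 counts after PBS and 239, 143 and 147 after the combination (log2 fold change 5.28, SE 0.71, adjusted p = 0.000159). Fpr1, its neighbour in function, had 4.31 (SE 0.90, adjusted p = 0.00247), Cd14 1.61 (SE 0.40, adjusted p = 0.00664) and Tlr2 1.19 (SE 0.16, adjusted p = 0.000171). These are genes of myeloid cells, and the marker sums above rose in the same libraries. The hemoglobin scavenger Cd163 had a mean of 83.1 CPM after PBS and 113 CPM after the combination, and Tnfaip6, which binds Ptx3 in the hyaluronan matrix, 10.3 and 17 CPM.

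Among the relatives of single members, Chil3 (3.83, SE 0.49, adjusted p = 0.000121) and Chit1 (1.06, SE 0.18, adjusted p = 0.00056) were called higher after the combination than after PBS, 2 of the 3 chitinase family genes tested of 7. Of all tested genes 7.35% were called higher there. Chil3 is a macrophage and neutrophil product with a close copy in Chil4, so its reads may be shared. Of 6 other pentraxin genes 3 were tested, and Nptx1, a neuronal pentraxin, was called lower after the combination (-1.98, SE 0.28, adjusted p = 0.000225) and after IL-36γ (-1.25, SE 0.27, adjusted p = 0.00529). Of the LPS-binding family 6 of 7 genes were analysed and 2 (Bpifc and Pltp) were tested, with 0 called against PBS. Bpifa1 had no count in any library.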

How the data were processed

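Per the labels and the methods of the study, total RNA of mouse ears was made into stranded libraries and sequenced in paired reads of 76 bases. The authors used STAR 2.5.2b for alignment to mm10, and the deposited table holds raw counts per Ensembl gene from featureCounts (Subread 1.5.1). Strand and multi-mapping settings are not given in the sources used here. The authors' tables of comparisons (DESeq2 1.30.0) hold fold changes and p-values, and were used for gene symbols only.

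The members, lists and motifs were chosen with earlier results of these data known. The genes named from a list are at most 6 of those called after the combination against PBS, with the largest change, and those at 0 counts throughout. Genes outside this rule, such as A2m, Orm1, Mt2, Tnf, Il1a, Lif, Il11, Cd163, Tnfaip6, Il6ra, Il6st, Bpifc and Pltp, were named after their values were seen. Single cell type markers were named outside this rule as well. Groups were taken from the sample labels. A minimum count of 10 was set in filterByExpr, libraries were scaled by TMM, and 1 quasi-likelihood fit of edgeR 4.0.16 (R 4.3.3) made over 12 libraries and 4 groups, with a common biological coefficient of variation of 14.2%. SE is the log2 fold change divided by the root of F. The 95% intervals of fold changes use this SE with the residual degrees of freedom of the 12 libraries alone. The test also borrows degrees of freedom over genes, so these intervals are wider than the test and can include 0 where the unadjusted p is below 0.05. Replicates are separate mice. Same-numbered libraries of IL-36γ and IL-17A + IL-36γ deviated together from their group means (r = 0.128, 0.188 and 0.24 over genes, other pairs of these groups at most 0.084). The numbers were therefore taken to pair these groups, after seeing the data, as a feature that the labels do not explain. Differently numbered libraries of PBS and IL-17A + IL-36γ reached r = 0.364, so the pairing is uncertain. Libraries of a group were no copies, as their 12 pairs had chi-square values of 6.56 to 58.4 per gene. The procedure was tested on simulated data. Alternatives were other scalings, filters, the likelihood ratio test of DESeq2 1.42.0, no fold change threshold, only the groups compared, a replicate block and each library left out. Lengths and positions are from GENCODE vM21 (GRCm38, the sequence of mm10), and promoters from RefSeq (GRCm38.p6).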

Additional observations from a re-analysis of the deposited data

Results flagged for a closer look

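The interaction of IL-17A and IL-36γ for Saa3 was -4.88 on the log2 scale (SE 0.56, adjusted p = 0.0122 by the quasi-likelihood test of edgeR). It is the difference, on that scale, in the effect of IL-17A between ears with and without IL-36γ. IL-17A raised Saa3 from a mean of 0.71 to 20.6 CPM when given alone, and the mean was 145 CPM with and 150 CPM without IL-17A where IL-36γ had been injected. Saa3 was chosen with its change after IL-17A known, so the p-value is not independent of that choice. On the CPM scale the departure from additivity was -24.6 CPM (SE 32.2), smaller than its SE, so the difference was seen on the log2 scale only.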

How the results depend on the processing

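No called change of a member reversed. Between the cytokine groups, the calls of Saa1, Saa3 and Chil1 against IL-17A held under each alternative that could test the gene. The number of members called after IL-17A against PBS fell from 3 to 1 with only the groups compared. For the interaction it went from 1 to 3 without a filter and with DESeq2, to 2 with the replicate block, and to between 0 and 2 with 1 library left out. Of the list of 27 other acute-phase genes, the number called went from 3 to 5 after IL-17A and from 5 to 8 for the combination against IL-17A without a fold change threshold, and from 0 to 1 for the combination against IL-36γ without a filter, with DESeq2 or with the replicate block in a fit of only the groups compared, a fit chosen after seeing the data. Its interaction calls went from 3 to 0 with library size only, and to 6 without a filter, with DESeq2 and with the replicate block. With 1 library left out, its calls ranged from 5 to 9 after IL-36γ, from 0 to 1 for the combination against IL-36γ, from 2 to 4 for IL-36γ against IL-17A and from 0 to 6 for the interaction. The cause was not tested. Outside the comparison of IL-36γ with the combination, no pair of groups had all 3 same-numbered correlations over 0.1, and there the numbers were not taken to pair the mice. The block over 12 libraries changed the number of members called only for the interaction, where all genes called went from 25 higher and 82 lower to 391 and 492. Depth limits Saa2, whose counts lie at or near the floor of 3 per library.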
